A study of Mus musculus with 7 samples.

Results

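The genes described here are 30 genes of cholesterol and fatty acid synthesis and of cholesterol export, chosen by symbol from a list. All 30 symbols were found in each of the 7 libraries, among 27514 genes shared by the 2 gene references in use, and all 30 passed the filter on low counts among the 12325 genes tested. By role, 9 supply acetyl-CoA or make and use mevalonate, 11 lead from squalene to cholesterol, 4 make fatty acids, 3 are regulators and 3 move cholesterol. The list came with earlier results of these data in view.

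The study sequenced single spleen T cells of 8-week-old male C57BL/6 mice with the 10x Chromium 3′ assay, which counts unique molecular identifiers (UMIs) near the 3′ end of each mRNA. Activated DNT cells (2 libraries) came from naive DNT cells kept 3 days in culture under CD3 and CD28 antibodies plus 20 ng/ml IL-2. Naive DNT cells (2 libraries) were sorted as double negative T cells: CD3+, NK1.1-, TCRab+, TCRgd-, CD4-, CD8- and unstained by both CD1d reagents, loaded with aGal or with LPC. CD4 cells (1 library) were sorted CD4+CD8-, CD8 cells (1 library) CD4-CD8+, and TCRab cells (1 library) only for CD3 and the TCRab receptor, without NK1.1 and TCRgd, so they are a mixture. No group was cultured without stimulation, so stimulation and 3 days of culture cannot be told apart. Replicate 1 of both DNT groups and the CD4, CD8 and TCRab libraries were made with library kit v2, and replicate 2 of both DNT groups with kit v3. The labels call the DNT replicates biological and do not say how many mice each holds.

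The 28101 cells kept numbered 1549 to 6728 per library. Total UMIs were 34521240 and 25347948 in activated DNT, 17358231 and 53653855 in naive DNT, and 18373324 to 24115584 in the other libraries. The median cell held 15795 and 9386 UMIs in activated DNT, 4119 and 7556 in naive DNT, and 3987 to 4899 elsewhere. Levels below are UMIs scaled to a common library total of 1000000 (CPM), so they give a gene's part of the message pool and not molecules per cell. T cell markers summed to 1805 and 2078 CPM in activated DNT and to 3442 and 2879 CPM in naive DNT. Summed over the libraries, a change within cells and a changed mix of cells cannot be told apart.

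Cells build cholesterol from acetyl-CoA through mevalonate, farnesyl diphosphate, squalene and lanosterol. When sterols in the endoplasmic reticulum run low, the transcription factors SREBP1 and SREBP2, encoded by Srebf1 and Srebf2, are released by proteolysis and switch on these enzymes, and Insig1 holds them back. When sterols accumulate, oxysterols activate the LXR receptors, which switch on the exporters Abca1 and Abcg1. In T cells, stimulation is known to engage SREBP-driven lipid synthesis and to restrain LXR signalling.

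Promoter sequence is shown for 4 members because the comparison of activated with naive cells turns on the synthesis enzymes and the exporters. RefSeq promoters of build GRCm38.p6, each 250 bases before to 50 bases after a gene's start, matched 23 of the 30 members. Fdps, Fdft1, Sqle, Scd1, Scd2, Stard4 and Abcg1 had no match, so Sqle, which rose, and Abcg1, which fell, could not be shown. Both strands were searched for the sterol response element TCACNCCAC, for CCAAT, which the factor NF-Y binds and with which SREBPs act, and for the Sp1 box GGGCGG. The first pair below belongs to members that rose in activated cells, the third to Hmgcs1, which did not pass the test, and the last to the exporter Abca1, which fell. Capitals mark CCAAT or its reverse complement ATTGG and, in Hmgcs1, the sterol response element.
Cyp51 (chr5:4104648-4104947, minus strand): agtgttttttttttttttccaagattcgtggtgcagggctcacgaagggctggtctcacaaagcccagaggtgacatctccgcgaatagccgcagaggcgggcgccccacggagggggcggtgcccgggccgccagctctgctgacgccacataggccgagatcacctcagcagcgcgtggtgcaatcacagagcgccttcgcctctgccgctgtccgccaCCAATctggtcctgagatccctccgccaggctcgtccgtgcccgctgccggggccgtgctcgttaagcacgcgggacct
Idi1 (chr13:8885356-8885655, plus strand): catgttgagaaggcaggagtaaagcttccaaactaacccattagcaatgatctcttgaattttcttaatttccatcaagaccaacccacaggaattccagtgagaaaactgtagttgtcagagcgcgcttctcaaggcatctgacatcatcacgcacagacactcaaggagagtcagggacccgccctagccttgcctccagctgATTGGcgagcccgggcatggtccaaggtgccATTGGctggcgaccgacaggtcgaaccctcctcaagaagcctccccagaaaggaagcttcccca
Hmgcs1 (chr13:119690101-119690400, plus strand): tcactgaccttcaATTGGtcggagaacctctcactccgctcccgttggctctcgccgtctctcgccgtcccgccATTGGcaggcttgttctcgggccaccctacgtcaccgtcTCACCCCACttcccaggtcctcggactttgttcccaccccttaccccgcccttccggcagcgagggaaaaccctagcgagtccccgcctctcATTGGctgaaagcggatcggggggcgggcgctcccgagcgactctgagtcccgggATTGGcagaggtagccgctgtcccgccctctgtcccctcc
Abca1 (chr4:53159846-53160145, minus strand): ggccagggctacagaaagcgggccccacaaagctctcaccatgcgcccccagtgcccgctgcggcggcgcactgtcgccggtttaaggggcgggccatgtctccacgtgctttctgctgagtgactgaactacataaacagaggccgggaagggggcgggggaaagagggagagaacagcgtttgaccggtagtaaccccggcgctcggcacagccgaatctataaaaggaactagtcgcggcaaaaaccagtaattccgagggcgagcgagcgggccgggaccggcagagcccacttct

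Counted from the gene's start, the CCAAT match began at −29 in Cyp51 and the reverse matches at −45 and −14 in Idi1. Hmgcs1, the gene of HMG-CoA synthase, held 4 such matches, at −237, −176, −45 and 10, and a sterol response element at −137. CCAAT stood in 20 of the 23 matched members (87.0%) and in 41.1% of 27025 genes with a promoter of this length. The 3 matched members without it were Acat2, Acaca and Abca1. GGGCGG stood in 19 of the 23 members (82.6%) and in 38.2% of all genes, and the sterol response element in 1 member and in 1.44% of all genes. The 27025 genes were not limited to the 12325 tested for expression, as all members were, so the 2 sets are unlike. A gene counted when any of its promoters held the letters. These counts describe letters in a short window and not sites of binding, and their relation to expression was not tested.

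In activated against naive DNT cells, 3 enzymes of cholesterol synthesis rose and both cholesterol exporters fell. Cyp51, Idi1 and Sqle were 5.99-fold to 7.40-fold higher in activated cells, and Abcg1 and Abca1 were 10.2-fold and 12.3-fold lower, by edgeR's quasi-likelihood test on 2 against 2 libraries with adjustment over all 12325 genes. The other 25 members did not pass the test. Of all genes tested 5.32% were called higher and 5.06% lower, against 3 and 2 of the 30 members. The median log2 fold change was 0.39 over the 30 members and −0.05 over all genes, and 20 of the 30 members against 48.0% of all genes had a positive value. CPM in both activated libraries lay above both naive libraries for 14 members and below both for 5, while 30.8% and 21.1% of all genes did so, and 11 members overlapped.

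**Figure D1:**
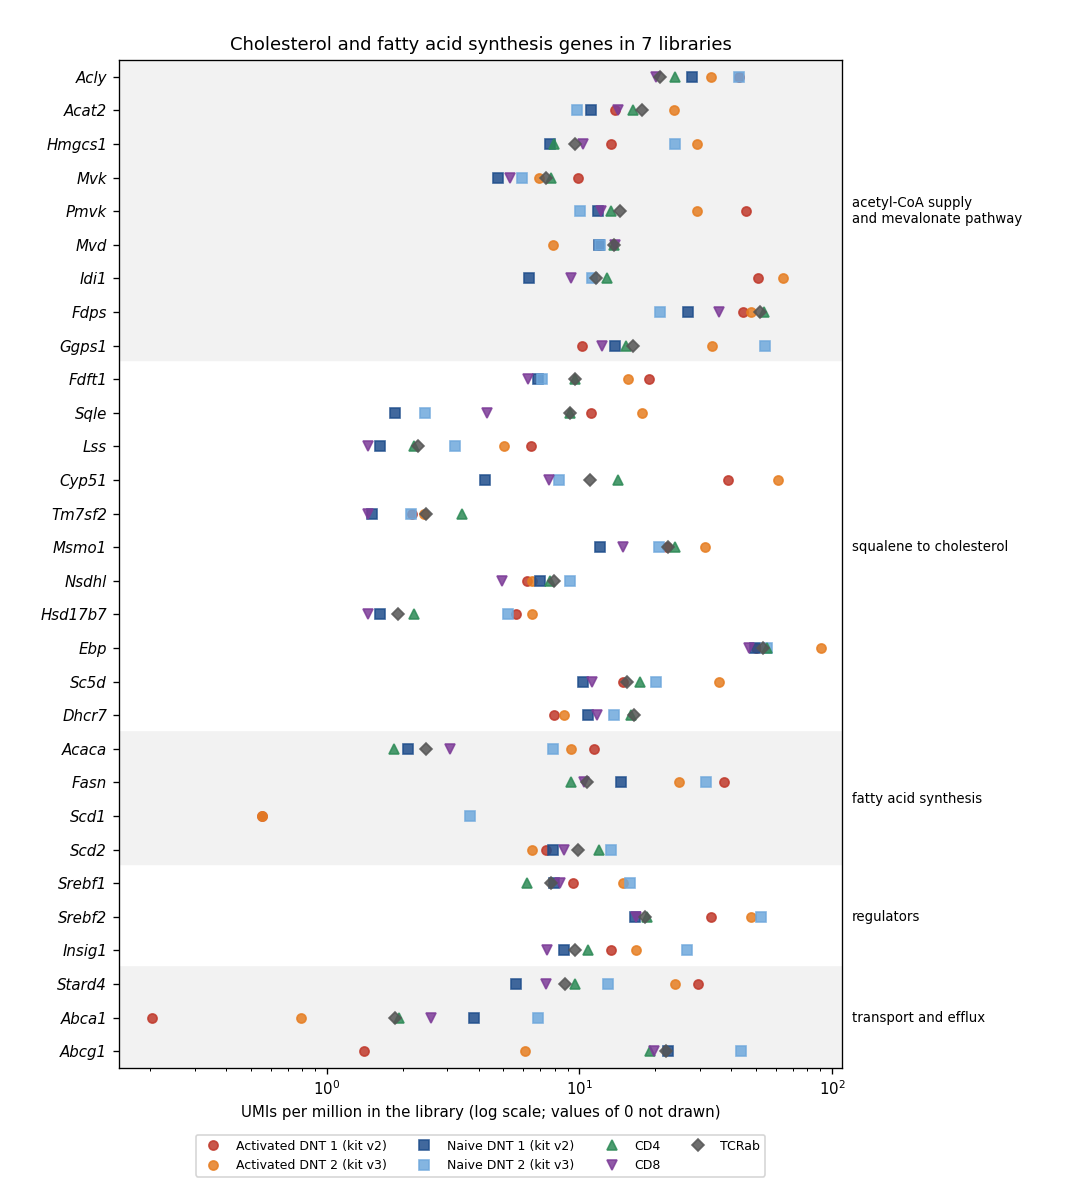
CPM (log axis) of the 30 genes, down the page by role, in activated DNT (red and orange circles), naive DNT (dark and light blue squares), CD4, CD8 and TCRab libraries. Cyp51 and Idi1 sit at 38.6 to 64.2 CPM in activated DNT and at 4.23 to 11.2 CPM in naive DNT, and Abca1 and Abcg1 lie lowest in activated DNT.

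The replicate number is also the library kit, and with the number as a block in the same edgeR fit 7 members were called higher and 3 lower, while 19.9% and 19.8% of all genes were called. The members that the block added were Pmvk, Fdps, Fdft1 and Stard4, higher, and Ggps1, lower. Of the members, 8 had higher CPM in both kit v3 libraries than in both kit v2 libraries of the DNT groups and 0 had lower CPM in both, against 38.5% and 4.11% of all genes. Among them, Ggps1 was 3.26-fold higher in the kit v3 library of activated DNT and 3.93-fold higher in that of naive DNT. Kit, batch and animals of a replicate cannot be told apart.

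Among the 9 genes of the mevalonate segment, 1 rose, 0 fell and 8 did not pass the test, with a median log2 fold change of 0.59. Over all genes 5.32% were called higher and 5.06% lower, and the median was −0.05. With 9 genes, a count of 1 is not read as a result about the segment. Idi1, which interconverts the building blocks of all isoprenoids (chr13:8885501-8892451, GRCm38), had 50.8 and 64.2 CPM in activated DNT, against 6.32 and 11.2 CPM in naive DNT. The groups did not overlap, and each activated library stood far above its naive partner of the same kit, 8.05-fold in kit v2 and 5.74-fold in kit v3. The log2 fold change was 2.62 ± 0.39 (SE), adjusted p = 0.0118. Without naive replicate 1 the log2 fold change was 2.52 and the adjusted p 0.0572, with 1 naive library left in the fit.

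Pmvk, the kinase that makes mevalonate diphosphate, had 45.9 and 29.2 CPM in activated DNT and 11.8 and 10.1 CPM in naive DNT. Its libraries did not overlap, but the activated pair lay far apart, and its log2 fold change of 1.67 ± 0.52 missed the threshold (adjusted p = 0.0856; 0.0005 with the block). Fdps, which makes farnesyl diphosphate, had 44.6 and 47.7 CPM in activated DNT and 26.9 and 20.9 CPM in naive DNT, a log2 fold change of 0.77 ± 0.45 (adjusted p = 0.311; 0.0197 with the block). The activated values were close together and both above naive.

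Hmgcs1 had 13.3 and 29.1 CPM in activated DNT and 7.65 and 23.9 CPM in naive DNT. Its groups overlapped, and the kit v3 library was the higher of each pair.

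Acly, which makes cytosolic acetyl-CoA from citrate, had 43.0 and 33.2 CPM in activated DNT and 27.9 and 42.9 CPM in naive DNT. The log2 fold change was 0.06 ± 0.42 and the direction differed between kits. Acat2, the cytosolic thiolase of the first step, had 13.8 and 23.7 CPM in activated DNT and 11.1 and 9.77 CPM in naive DNT (log2 fold change 0.62 ± 0.41, adjusted p = 0.373). Mevalonate kinase Mvk had 9.87 and 6.94 CPM in activated DNT and 4.75 and 5.92 CPM in naive DNT, and the decarboxylase Mvd had 12.0 and 7.85 CPM in activated DNT and 11.9 and 12.1 CPM in naive DNT. Neither passed the test.

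Ggps1, which makes geranylgeranyl diphosphate for protein prenylation and so branches off before squalene, had 10.3 and 33.5 CPM in activated DNT and 13.8 and 54.2 CPM in naive DNT. The kits differed more than the groups, and within each kit the activated library was the lower. Its log2 fold change was −0.74 ± 0.60 (adjusted p = 0.480; 0.0356 with the block).

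**Figure D2:**
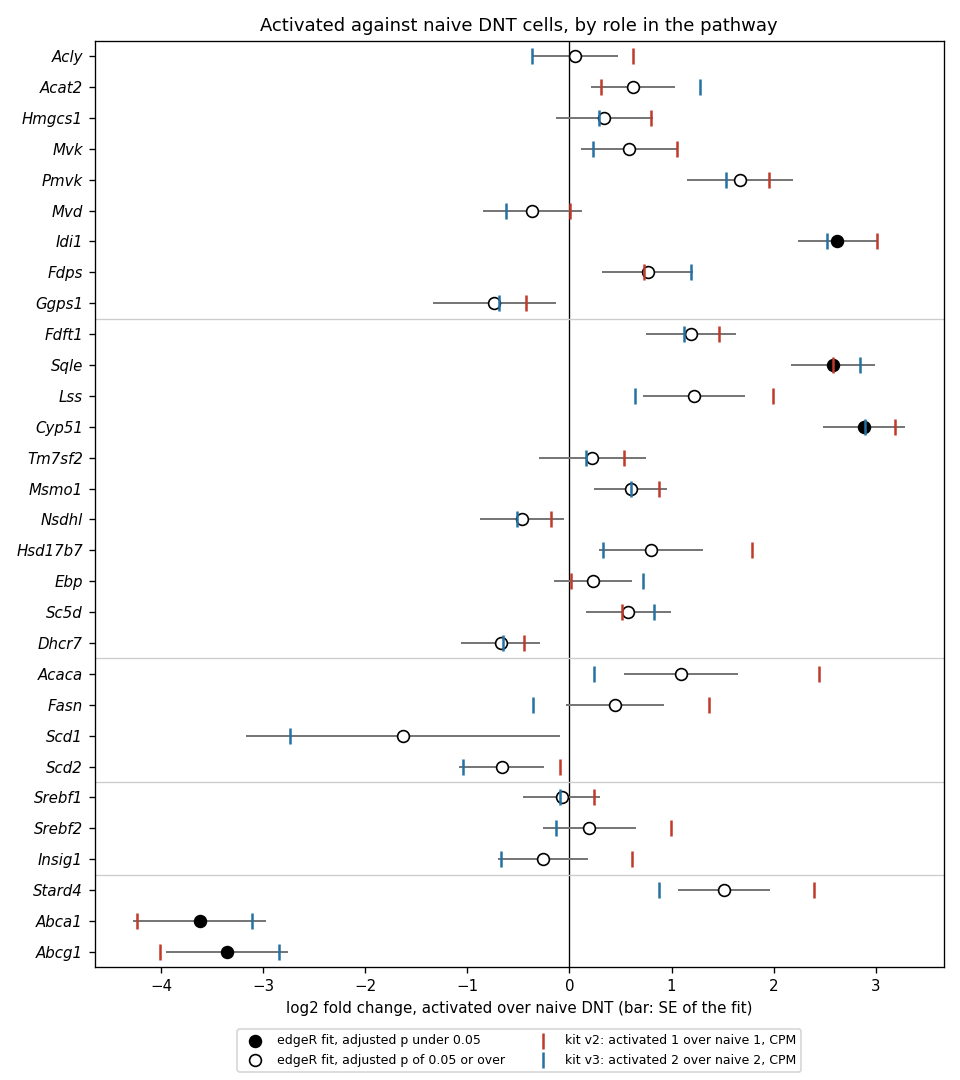
Log2 fold change of each member, activated over naive DNT, from the edgeR fit (circles with SE bars, filled where the adjusted p is under 0.05), with the CPM ratio within kit v2 (red ticks) and within kit v3 (blue ticks). The 5 filled points are Idi1, Sqle and Cyp51 at 2.58 to 2.89 and Abca1 and Abcg1 at −3.62 and −3.35, and Scd1 has no kit v2 tick because 1 library is at 0.

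Among the 11 genes from squalene to cholesterol, 2 rose, 0 fell and 9 did not pass the test, with a median log2 fold change of 0.60. The shares over all genes were 5.32% higher and 5.06% lower, with a median of −0.05. With 11 genes, a count of 2 is not read as a result about the segment. Sqle, squalene epoxidase and a control point of the sterol branch (chr15:59315077-59331192), had 11.1 and 17.6 CPM in activated DNT, against 1.85 and 2.46 CPM in naive DNT. Both activated libraries were several-fold above both naive libraries, and the log2 fold change was 2.58 ± 0.41 (adjusted p = 0.0147). Cyp51, the demethylase that acts on lanosterol (chr5:4081145-4104746), had 38.6 and 61.3 CPM in activated DNT and 4.23 and 8.27 CPM in naive DNT. Its libraries lay 9.12-fold apart in kit v2 and 7.42-fold apart in kit v3, and its log2 fold change of 2.89 ± 0.40 (adjusted p = 0.0107) was the largest positive one among the 30.

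Fdft1, squalene synthase, had 18.9 and 15.5 CPM in activated DNT and 6.84 and 7.12 CPM in naive DNT. Replicates were close in both groups and the groups did not overlap, yet the log2 fold change of 1.19 ± 0.44 missed the threshold (adjusted p = 0.127; 0.0072 with the block). Lanosterol synthase Lss had 6.46 and 5.04 CPM in activated DNT and 1.62 and 3.22 CPM in naive DNT (log2 fold change 1.22 ± 0.50, adjusted p = 0.164).

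The enzymes that follow Cyp51 on the way to cholesterol did not pass the test, and their values differed in sign. Msmo1, which oxidises methylsterols, had 22.3 and 31.3 CPM in activated DNT and 12.1 and 20.7 CPM in naive DNT. Nsdhl, the dehydrogenase working beside it, had 6.20 and 6.46 CPM in activated DNT and 7.01 and 9.20 CPM in naive DNT. Msmo1 was thus higher and Nsdhl lower in both activated libraries, with log2 fold changes of 0.60 ± 0.36 and −0.46 ± 0.41.

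The keto reductase Hsd17b7 had 5.59 and 6.50 CPM in activated DNT and 1.62 and 5.19 CPM in naive DNT. The isomerase Ebp had 50.2 and 90.7 CPM in activated DNT and 49.6 and 55.2 CPM in naive DNT, and the desaturase Sc5d had 14.8 and 35.7 CPM in activated DNT and 10.4 and 20.1 CPM in naive DNT. In Ebp and Sc5d activated replicate 2 stood apart from the other 3 libraries. Dhcr7, the reductase of the last step, had 7.94 and 8.68 CPM in activated DNT and 10.8 and 13.7 CPM in naive DNT, lower in both activated libraries (log2 fold change −0.67 ± 0.38, adjusted p = 0.298). The sterol reductase Tm7sf2 stayed at 1.51 to 2.42 CPM in all 4 DNT libraries.

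Summed over the 20 enzymes from Acly to Dhcr7, the level was 428 and 557 CPM in activated DNT, 230 and 338 CPM in naive DNT, 326 CPM in CD4, 246 CPM in CD8 and 316 CPM in TCRab. Both activated libraries were above every other library in this sum, and CD4, CD8 and TCRab lay between the naive libraries.

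None of the 4 fatty acid genes rose or fell in the edgeR fit. At an unadjusted p under 0.05, 0 rose and 0 fell, and DESeq2 called 0 in either direction. Of all 12325 genes, 1714 were higher and 1794 lower at that unadjusted p, and DESeq2 called 1207 higher and 1141 lower. With 4 genes, counts of 0 do not show that these genes were unchanged. Acaca, acetyl-CoA carboxylase, had 11.4 and 9.28 CPM in activated DNT and 2.09 and 7.85 CPM in naive DNT. Fatty acid synthase Fasn had 37.5 and 24.7 CPM in activated DNT and 14.5 and 31.6 CPM in naive DNT. For both genes naive replicate 1 was the lowest of the 4 libraries, and Fasn was 2.58-fold higher in the activated library of kit v2 but 0.781 times the naive level in kit v3. The stearoyl-CoA desaturase Scd2 had 7.39 and 6.50 CPM in activated DNT and 7.88 and 13.3 CPM in naive DNT, lower in both activated libraries.

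The related desaturase Scd1 had 0.553 and 0.555 CPM in activated DNT, and 0 and 3.69 CPM in naive DNT. In naive replicate 2, 188 of its 197 UMIs lay in 298 cells with at least 2 UMIs of B cell markers. It had 0 UMIs in the CD4, CD8 and TCRab libraries, which allows up to 0.164 CPM in the shallowest of them, counting error only. How the authors' counting treated reads shared by these related genes is not given in the sources used here.

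None of the 3 regulators rose or fell in the edgeR fit, with 0 in each direction at an unadjusted p under 0.05 and 0 by DESeq2. Given the counts over all genes above, 0 of 3 does not show that the regulators were unchanged. Srebf2 had 33.1 and 47.9 CPM in activated DNT and 16.6 and 52.4 CPM in naive DNT. Srebf1 had 9.40 and 14.9 CPM in activated DNT and 7.94 and 15.9 CPM in naive DNT, and Insig1 had 13.3 and 16.8 CPM in activated DNT and 8.69 and 26.7 CPM in naive DNT. The groups overlapped for all 3, and the kit v3 library was the higher in each group. SREBP activity depends on proteolysis, which mRNA levels do not measure.

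Both exporters fell. Abca1, which loads cholesterol onto lipid-poor apolipoprotein (chr4:53030787-53159895), had 0.204 and 0.793 CPM in activated DNT, against 3.82 and 6.84 CPM in naive DNT. These rest on 7 and 20 UMIs in activated DNT and 66 and 365 UMIs in naive DNT, and its log2 fold change was −3.62 ± 0.65 (adjusted p = 0.0196). Abcg1, which passes cholesterol to lipoprotein particles (chr17:31057675-31117988), had 1.40 and 6.11 CPM in activated DNT and 22.5 and 43.8 CPM in naive DNT. Neither gene's groups overlapped, and the log2 fold change of Abcg1 was −3.35 ± 0.60 (adjusted p = 0.0193). Abcg1 had a UMI in 2.57% and 8.65% of activated cells and in 8.97% and 26.7% of naive cells. In cells thinned to 1500 UMIs, the shares were 0.223% and 2.58% of activated cells and 3.57% and 5.85% of naive cells, so the gap in kit v3 was narrower than in CPM. The size of both falls depended on the activated libraries: without activated replicate 2 the log2 fold changes were −4.52 for Abca1 and −4.38 for Abcg1, and without activated replicate 1 they were −3.05 and −2.73.

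Stard4, which carries sterols between membranes inside the cell, had 29.6 and 23.9 CPM in activated DNT and 5.62 and 13.0 CPM in naive DNT. It lay above both naive libraries, with a log2 fold change of 1.52 ± 0.45 (adjusted p = 0.0744; 0.0135 with the block).

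In summed CPM, markers of other cell types were lower in the activated libraries. Red cell markers summed to 0 and 0.436 CPM in activated DNT, with all 6 markers at 0 in replicate 1 and 4 at 0 in replicate 2, Hba-a1, Hba-a2 and Alas2 among them, and to 3698 and 819 CPM in naive DNT. Myeloid markers summed to 4.60 and 5.95 CPM in activated DNT, with Lyz2, C1qa and C1qb of 7 at 0 in replicate 1 and C1qa, C1qb and Adgre1 in replicate 2, and to 338 and 76.0 CPM in naive DNT. B cell markers summed to 9.92 and 13.4 CPM in activated DNT, with 3 of 6 at 0 in replicate 1, Ms4a1 and Pax5 among them, and to 26.5 and 106 CPM in naive DNT. NK cell markers summed to 35.7 and 55.2 CPM in activated DNT, with Ncr1 of 3 at 0 in replicate 1, and to 74.2 and 69.9 CPM in naive DNT. Shares of cells with a marker UMI, at a depth that differs between libraries, did not all follow. They were 34.5% and 31.1% of activated and 20.9% and 23.8% of naive cells for NK markers. For B cell markers they were 12.8% and 10.3% against 8.35% and 16.3%, and for myeloid markers 7.93% and 7.81% against 11.9% and 6.03%. For red cell markers they were 0% and 0.194% against 64.3% and 10.0%. Every cell with a UMI of the red cell, myeloid or B cell markers was then left out. That took out 19.9% and 17.2% of activated cells and 70.4% and 29.1% of naive cells. A T cell marker UMI was found in 99.6% and 99.3% of all naive cells, so most cells left out of naive replicate 1 held one. In the cells that remained, the same 5 members were called. The adjusted p was then 0.0111 for Cyp51, 0.0132 for Idi1, 0.0137 for Sqle, 0.0330 for Abca1 and 0.0253 for Abcg1. In those remaining naive cells Abcg1 stood at 23.7 and 44.8 CPM, as high as in all naive cells.

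Depth per cell differed between the libraries, so shares of cells with a UMI were also taken after each cell was thinned to 1500 UMIs. The median share over the 30 members was 18.8% and 19.4% in activated DNT and 3.28% and 8.58% in naive DNT as deposited, and 1.87% and 2.48% in activated DNT and 1.17% and 1.75% in naive DNT after thinning. Cyp51 had a UMI in 4.47% (exact binomial 95% interval 3.56% to 5.53%) and 4.82% (3.78% to 6.04%) of thinned activated cells, against 0.225% (0.103% to 0.426%) and 1.38% (1.12% to 1.70%) of thinned naive cells. Idi1 had one in 5.97% and 5.43% of thinned activated cells and in 0.749% and 1.31% of thinned naive cells. For both genes the shares in the activated libraries lay above those in the naive libraries at equal depth, and they are low in every library. In the edgeR test on thinned cells Idi1 was called, with a log2 fold change of 2.42 ± 0.50 (adjusted p = 0.0286). Cyp51 had 2.52 ± 0.67 (adjusted p = 0.0783) and Sqle 1.96 ± 0.58 (adjusted p = 0.109), and neither passed. The exporters also missed the threshold, with log2 fold changes of −2.67 ± 0.76 for Abca1 (adjusted p = 0.0936) and −2.02 ± 0.78 for Abcg1 (adjusted p = 0.234), smaller falls than the −3.62 and −3.35 in all UMIs. No group here is known to lack these enzymes, so the share that free RNA gives was not measured.

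Proliferation genes rose in activated cells: 15 of 15 were called, and their sum was 637 and 1102 CPM in activated DNT and 39.2 and 77.0 CPM in naive DNT. Activated cells were therefore split, within each library and after thinning, into dividing cells with at least 3 UMIs of the 15 genes (177 of 1791 and 117 of 1474 cells) and cells with 0. The 30 members together were 1.57-fold (exact 95% interval 1.35 to 1.83) and 1.56-fold (1.31 to 1.84) higher in dividing cells of replicates 1 and 2. The intervals cover counting error only, since cells of 1 library are not replicates, and no test was made.

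**Figure D3:**
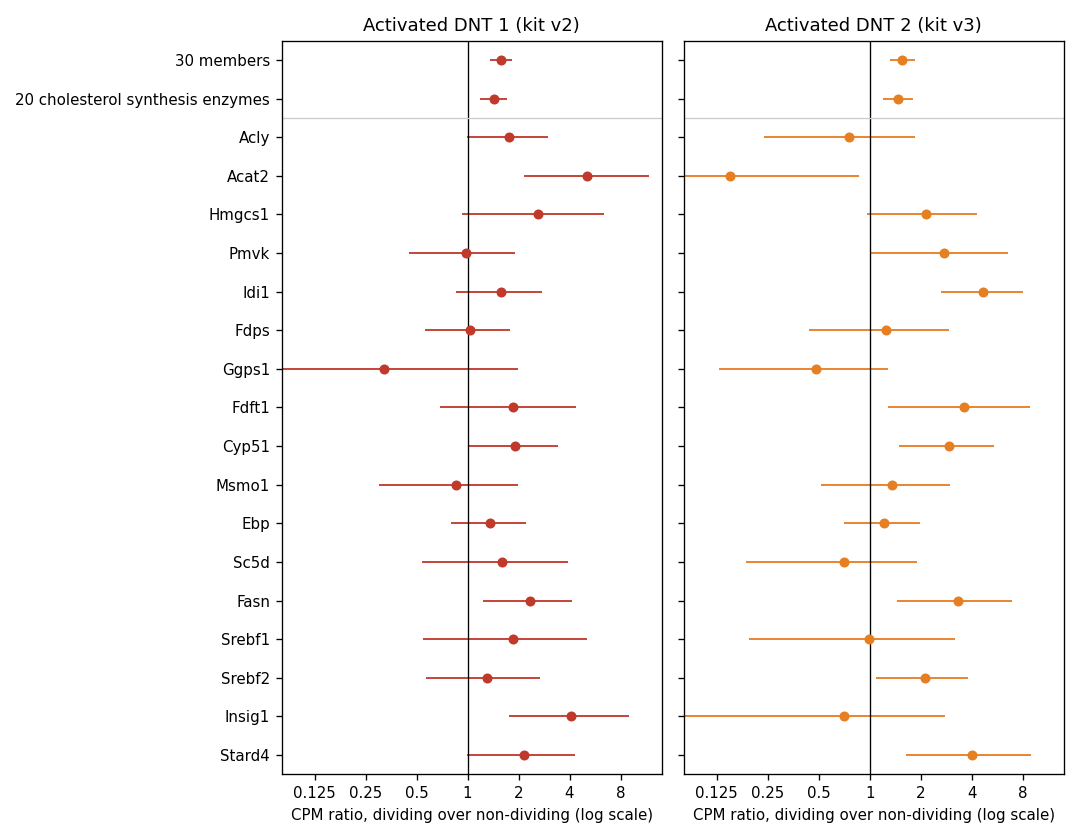
Ratio of CPM (log axis) in dividing over non-dividing cells of the 2 activated libraries, with exact 95% counting intervals, for the sums and for each member with at least 20 UMIs in both libraries; bars that reach the left edge go on beyond it. The sums over 30 members lie at 1.57 and 1.56. The ratios of Idi1, Cyp51, Fasn, Stard4, Hmgcs1, Fdft1, Srebf2, Ebp and Fdps lie above 1 in both libraries.

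Fasn was 2.33-fold (1.24 to 4.15) and 3.31-fold (1.45 to 6.93) higher in dividing cells, Cyp51 1.92-fold (1.01 to 3.43) and 2.93-fold (1.5 to 5.40), and Stard4 2.15-fold (0.99 to 4.29) and 4.02-fold (1.64 to 9.01). Idi1 was 1.58-fold (0.86 to 2.74) and 4.69-fold (2.66 to 8.01) higher. Fdps stood near 1 in both libraries, at 1.03 and 1.26. Insig1, Acly and Sc5d were among those above 1 in replicate 1 and below 1 in replicate 2. Acat2 went opposite ways, 5.10-fold higher in dividing cells of replicate 1 and 0.15 times the level of non-dividing cells in replicate 2, where dividing cells held 1 UMI of it. With the dividing cells left out of the activated libraries, the same 5 members were called, with log2 fold changes of 2.80 for Cyp51, 2.50 for Idi1, 2.41 for Sqle, −3.28 for Abca1 and −3.01 for Abcg1. When every activated cell with a UMI of the 15 genes was left out, Cyp51 was called, with a log2 fold change of 2.53 ± 0.44 (adjusted p = 0.0374). Idi1 then had 2.14 ± 0.46 (adjusted p = 0.0652) and Sqle 1.99 ± 0.48 (adjusted p = 0.0846). Abca1 had −2.44 ± 1.01 (adjusted p = 0.297) and Abcg1 −2.37 ± 0.69 (adjusted p = 0.143), so both falls were smaller than in all activated cells. This filter used cells at full depth, so it also favours cells with few UMIs. It left 620 of 1791 and 887 of 1549 activated cells, while 73.3% and 81.5% had 0 such UMIs after thinning. Whether the smaller changes go with division or with depth was not tested.

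In spleen T cells not cultured, none of the 30 members was 2-fold or more away from CD4, CD8 or TCRab in both naive libraries while reaching 20 CPM in each library of the higher group. Of 17378 genes detected, 1.59%, 1.23% and 1.25% passed that rule against CD4, CD8 and TCRab. These groups have 1 library each, so ratios are given with exact 95% counting intervals and no test. Most members lie under 20 CPM, so the rule was also used with no floor and with each interval on 1 side of 1. Then 0 members were higher and 1 was lower against CD4 (7.85% and 1.57% of all genes), 0 and 0 against CD8 (8.33% and 0.621%), and 1 and 1 against TCRab (6.16% and 1.46%).

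The lower member was Sqle. It had 1.85 and 2.46 CPM in naive DNT, against 9.18 CPM in CD4, 4.29 CPM in CD8 and 9.14 CPM in TCRab. Naive DNT stood at 0.20 (0.13 to 0.29) and 0.27 (0.21 to 0.34) times CD4, and at 0.43 (0.28 to 0.65) and 0.57 (0.44 to 0.75) times CD8. Sqle was thus lowest in both naive libraries among the 7. The higher member was Abca1, with 3.82 and 6.84 CPM in naive DNT against 1.86 CPM in TCRab, a ratio of 2.05 (1.34 to 3.21) and 3.68 (2.58 to 5.39). Against CD4, with 1.94 CPM, the ratios were 1.97 and 3.53, and against CD8, with 2.58 CPM, 1.48 and 2.65.

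Fdps lay just outside the rule. It had 26.9 and 20.9 CPM in naive DNT, against 53.7 CPM in CD4, 35.8 CPM in CD8 and 52.0 CPM in TCRab, and its ratio to CD4 was 0.50 (0.45 to 0.56) and 0.39 (0.36 to 0.42). Cyp51 had 4.23 and 8.27 CPM in naive DNT, 14.3 CPM in CD4, 7.58 CPM in CD8 and 11.1 CPM in TCRab, below CD4 and TCRab in both naive libraries and on both sides of CD8. Idi1 had 6.32 and 11.2 CPM in naive DNT, 12.9 CPM in CD4, 9.29 CPM in CD8 and 11.7 CPM in TCRab, with the same order.

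In all, 12 members were lower in both naive libraries than in CD4 and 6 were higher, while 16.9% and 52.2% of 11719 genes with at least 50 UMIs in the 5 libraries were. Against TCRab the counts were 12 lower and 5 higher (19.8% and 47% of all genes), and against CD8 5 lower and 12 higher (10.7% and 60.9%). The 12 below CD4 were Acat2, Mvk, Pmvk, Mvd, Idi1, Fdps, Fdft1, Sqle, Cyp51, Tm7sf2, Msmo1 and Dhcr7, all enzymes of cholesterol synthesis, and they are the 12 below TCRab. Acly, Fasn, Abca1 and Abcg1 were higher in both naive libraries than in CD4, CD8 and TCRab. Fasn had 14.5 and 31.6 CPM in naive DNT, 9.23 CPM in CD4, 10.4 CPM in CD8 and 10.7 CPM in TCRab. Abcg1 had 22.5 and 43.8 CPM in naive DNT, against 19.0 CPM in CD4, 19.8 CPM in CD8 and 22.0 CPM in TCRab, where naive replicate 1 lay within 1.19-fold of each.

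**Figure D4:**
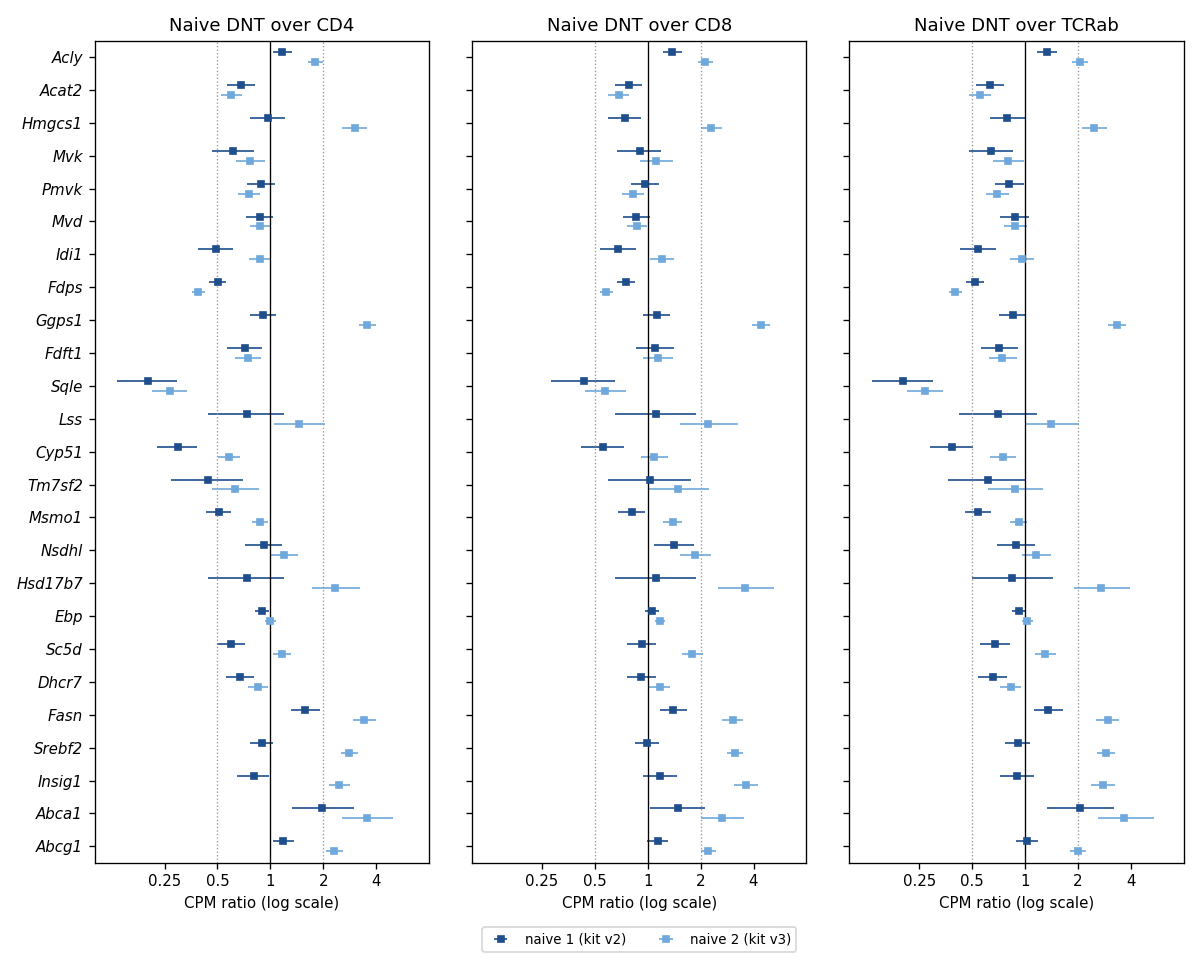
CPM ratio (log axis) of naive DNT replicate 1 (kit v2, dark) and replicate 2 (kit v3, light) over CD4, CD8 and TCRab for the 20 synthesis enzymes and 5 other members, with exact 95% counting intervals; dotted lines mark 0.5 and 2. Sqle lies lowest in both naive libraries against each of the 3 groups, and Ggps1, Hmgcs1, Srebf2 and Insig1 are above 2 in the kit v3 library and near 1 in the kit v2 library.

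The members past the rule differed between the naive libraries. With naive replicate 2 alone, made with kit v3, 6 members passed the 2-fold rule with 20 CPM as higher than CD4, 7 than CD8 and 6 than TCRab, while 11%, 11.7% and 10.5% of all genes did. Hmgcs1, Ggps1, Fasn, Srebf2 and Insig1 were higher against all 3 groups. Fdps passed as lower against CD4 and TCRab and no member against CD8, while 0.817%, 0.84% and 0.593% of all genes were lower than CD4, TCRab and CD8. With naive replicate 1 alone, which shares kit v2 with those groups, 0 members passed in either direction. Of all genes 1.55%, 1.4% and 1.24% were then higher than CD4, CD8 and TCRab, and 0.483%, 0.213% and 0.426% were lower. Srebf2 had 16.6 CPM in naive replicate 1 and 52.4 CPM in naive replicate 2, against 18.6 CPM in CD4, and Ggps1 had 13.8 CPM in naive replicate 1 and 54.2 CPM in naive replicate 2, against 15.2 CPM in CD4.

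Between the single-positive groups, which share kit v2, most sterol enzymes were lower in the CD8 library than in the CD4 library. Of 29 members with at least 50 UMIs in the pair, 17 had a counting interval below 1 and 3 above 1, while 33.7% and 13.3% of 9670 genes did. Sqle was at 4.29 CPM in CD8 and 9.18 CPM in CD4, a ratio of 0.47 (0.36 to 0.60). Cyp51 was at 7.58 CPM in CD8 and 14.3 CPM in CD4, a ratio of 0.53 (0.44 to 0.64). Fdps was at 35.8 CPM in CD8 and 53.7 CPM in CD4, a ratio of 0.67 (0.61 to 0.73). The 3 above 1 were Hmgcs1, Acaca and Srebf1, with Acaca at 3.08 CPM in CD8 and 1.85 CPM in CD4 (ratio 1.67, 1.12 to 2.52). With 1 library each, the spread between animals was not measured.

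Within libraries, UMIs of the early and the late segment were set side by side after thinning to 1500 UMIs, a grouping chosen after the data were seen. In CD4, 176 cells had at least 2 UMIs of the 9 mevalonate-segment genes, and in them the 11 genes from squalene to cholesterol summed to 390 CPM, against 130 CPM in 3930 cells with 0, a ratio of 3.01 (2.42 to 3.70). The ratio was 2.42 (1.87 to 3.08) in TCRab, 2.16 (1.47 to 3.06) in CD8, 2.25 (1.38 to 3.48) and 1.49 (1.17 to 1.87) in naive DNT, and 1.31 (0.90 to 1.86) and 0.86 (0.57 to 1.24) in activated DNT. In the 5 libraries of uncultured cells the intervals lay above 1, and in both activated libraries, with 105 and 96 cells at this cut, they included 1. The interval of activated replicate 1 overlapped those of both naive libraries and of CD8. That of activated replicate 2 overlapped that of naive replicate 2. A difference between cultured and uncultured cells is therefore not shown, and the same ratio for other genes was not measured. Among cells with at least 3 such UMIs, 8 to 39 per library, the ratio was 4.48 in CD4, 4.88 in TCRab, 3.07 in CD8, 2.54 and 2.31 in naive DNT, and 0.357 and 1.27 in activated DNT, with intervals that included 1 in CD8, in naive replicate 1 and in both activated libraries. The CD4 library also held the cell with the most UMIs of the 20 enzymes, 15 of its 1500.

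**Figure D5:**
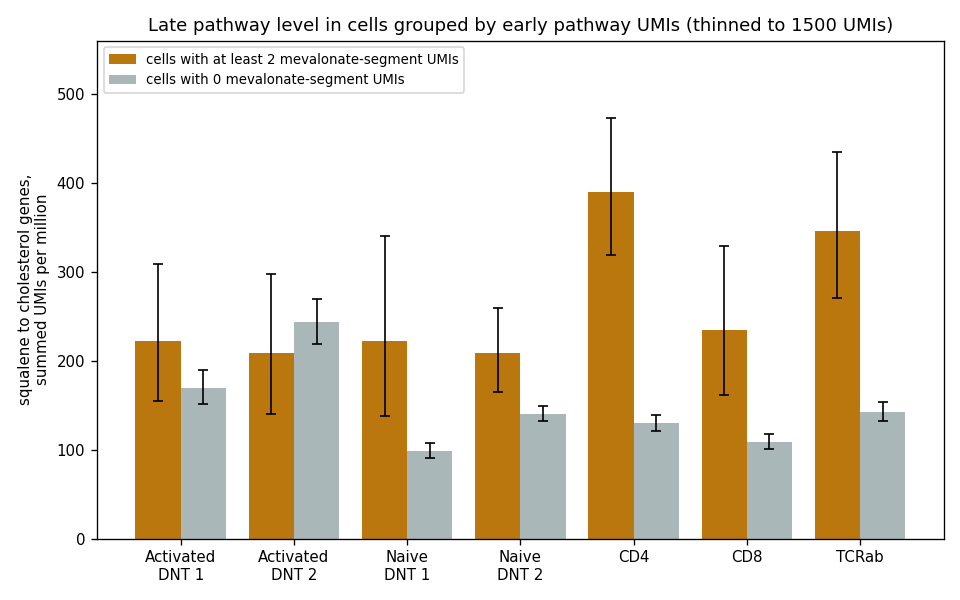
Summed CPM of the 11 genes from squalene to cholesterol in cells with at least 2 UMIs of the 9 mevalonate-segment genes (brown) and in cells with 0 (grey), per library, after thinning to 1500 UMIs per cell; error bars are exact 95% Poisson intervals for counting error. The brown bar stands at 390 CPM in CD4 and 345 CPM in TCRab, against grey bars of 130 and 143 CPM, and in activated DNT the bars overlap within their intervals.

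Genes around the pathway were read from 4 lists. For comparison, of all 12325 genes 5.32% were called higher and 5.06% lower, and 19.9% and 19.8% with the replicate block. At an unadjusted p under 0.05, 1714 were higher and 1794 lower, and DESeq2 called 1207 higher and 1141 lower. Of 19 tested genes of the wider SREBP pathway, 1 rose and 3 fell in activated DNT, against 8 higher and 4 lower with the replicate block. Tmem97, a sterol-regulated membrane protein that binds the cholesterol transporter NPC1, had 38.7 and 43.5 CPM in activated DNT and 4.17 and 4.99 CPM in naive DNT, a log2 fold change of 3.04 ± 0.40 (adjusted p = 0.0099). Its replicates were close in both groups, which did not overlap. Acss2, which makes acetyl-CoA from acetate, had 2.04 and 4.20 CPM in activated DNT and 13.0 and 18.1 CPM in naive DNT (log2 fold change −2.50 ± 0.42, adjusted p = 0.0161). Lpin1, a phosphatidate phosphatase, had 5.73 and 10.7 CPM in activated DNT and 16.9 and 38.3 CPM in naive DNT (−1.85 ± 0.41, adjusted p = 0.0350). These 2 were lower in both activated libraries without overlap. Elovl5, a fatty acid elongase, was at the threshold (−1.55 ± 0.39, adjusted p = 0.04996).

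The call of Lpin1 was lost without activated replicate 1 (adjusted p = 0.109), naive replicate 1 (0.0549) or naive replicate 2 (0.132), and that of Elovl5 without any 1 of the 4 libraries (0.0784 to 0.189).

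Of 14 tested genes of LXR signalling, uptake, storage and efflux, 0 rose and 1 fell. At an unadjusted p under 0.05, 0 were higher and 4 lower, DESeq2 called 0 higher and 2 lower, and the replicate block 1 higher and 3 lower. That gene was Cyp27a1, the sterol hydroxylase, with 0 UMIs in both activated libraries and 6 and 22 UMIs in naive DNT (adjusted p = 0.0431), a call lost without any 1 library that could be left out (0.0976 to 0.177). Mylip, an LXR target and ubiquitin ligase, was named after its values were seen: it had 2.12 and 10.1 CPM in activated DNT and 17.3 and 50.7 CPM in naive DNT, lower in both activated libraries (log2 fold change −2.64 ± 0.67, adjusted p = 0.0555). Of 15 genes of fatty acid oxidation 0 rose and 0 fell, with 0 at an unadjusted p under 0.05 in either direction and 0 by DESeq2, but 1 was called higher and 2 lower with the replicate block. Of 12 tested genes that use isoprenoids, Pdss1, which builds the side chain of coenzyme Q, rose, and 0 fell. At an unadjusted p under 0.05, 2 were higher and 1 lower, DESeq2 called 1 higher and 1 lower, and the replicate block 4 higher and 1 lower. It had 11.8 and 13.9 CPM in activated DNT and 1.45 and 2.89 CPM in naive DNT (log2 fold change 2.49 ± 0.43, adjusted p = 0.0176, and 0.0671 without naive replicate 1).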

How the data were processed

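The authors deposited 7 matrices holding UMI counts for every gene in every barcode, raw and not normalized. The labels describe 10x Chromium 3′ libraries, and the submitters' processing notes name Cell Ranger 2.1.0 and 3.0.1 with mm10 (GRCm38). The kit v3 matrices give software version 3.0.2, per the file headers. Comparisons used the 27514 genes shared by references of 27998 (kit v2) and 31053 (kit v3) genes, and 0.400% to 0.594% of UMIs lay outside them. Cells were kept from 200 genes upward and up to 10% of UMIs from mitochondrial genes. No doublet caller was used, and leaving out the 5% of cells with most UMIs stands as an alternative. Any pair of libraries shared at most 0.838% of the smaller one's barcodes.

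UMIs were summed per library and tested, 2 activated against 2 naive DNT, with edgeR 4.0.16 (R 4.3.3, limma 3.58.1: filterByExpr, TMM, robust quasi-likelihood, Benjamini-Hochberg at 0.05, 2 residual degrees of freedom, biological coefficient of variation 0.429). The script was tested on simulated data. Replicate numbers mark the library kit, and deviations of same-numbered libraries correlated with r = 0.648 across genes, which are not independent replicates, so a fit with this block (1 residual degree of freedom) is given where it changes a call. DESeq2 1.42.0 was an alternative. Other values used statsmodels 0.14.6, SciPy 1.17.1, matplotlib 3.10.9, pandas 2.3.3 and NumPy 2.4.6 in Python 3.11.15. SE is the fold change divided by the root of the F statistic. Intervals are exact at 95% and cover counting error only. Apart from these intervals, the CPM limit given for a count of 0 allows 3 UMIs. Coordinates of genes follow GENCODE vM21 (GRCm38). The members and the related lists were chosen with earlier results of these data known. Related genes are named when they passed the test, up to 6 per list by smallest adjusted p, and some results are not reported here.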

Additional observations from a re-analysis of the deposited data

How the results depend on the processing

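The number of members called higher and lower was 3 and 2 with DESeq2 size factors, all barcodes, without the top 5% of cells and without dividing cells. It was also 3 and 2 without cells holding a UMI of a B cell, myeloid or red cell marker. It was 5 higher with DESeq2's test or no filter on low counts, and 7 higher and 3 lower with the replicate block. In cells thinned to 1500 UMIs it was 1 higher and 0 lower. Thinning leaves fewer UMIs and gives each cell equal weight, and the part of each in the lost calls was not tested. Without activated cells holding a proliferation UMI it was 1 higher and 0 lower, with 620 and 887 activated cells left. Leaving out 1 library gave 2 to 5 higher and 2 lower each time, with Pmvk and Stard4 added without activated replicate 2; a group's lone library is then assumed to vary like the others. The block changed no other call of a member.

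All genes called higher and lower, 656 and 624, became 1207 and 1141 with DESeq2, 1083 and 1105 with no filter, 2458 and 2436 with the block, 277 to 1032 and 270 to 1042 leaving out 1 library, 205 and 106 after thinning, 115 and 106 without activated cells holding a proliferation UMI and 426 and 415 without dividing cells; without cells of other types 390 were lower.

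Members past the 2-fold rule were 0 in each comparison of naive DNT. They became 1 against CD4 and 1 against TCRab (Fdps) at 1.5-fold, with TMM scaling or without cells holding a marker UMI of other cell types. With 1 naive library left out they were 0 to 7. With no floor they were 1 against CD4, 0 against CD8 and 2 against TCRab. Thinning moved the median share of cells from 18.8% to 1.87% and 19.4% to 2.48% in activated DNT, 3.28% to 1.17% and 8.58% to 1.75% in naive DNT, 4.49% to 1.79% in CD4, 4.18% to 1.22% in CD8 and 4.01% to 1.53% in TCRab, by construction.

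Of 417 alternative values of the members' fold changes, 380 kept direction and call. The following log2 fold changes, none past the test, changed sign, and the cause was not tested. Leaving out 1 library, log2 fold changes ranged from −0.41 to 0.44 for Acly, −0.081 to 0.97 for Hmgcs1, −0.99 to 0.10 for Mvd, −1.46 to 0.12 for Ggps1, −0.18 to 0.90 for Fasn, −2.55 to 6.76 for Scd1, −0.26 to 0.15 for Srebf1, −0.24 to 0.83 for Srebf2 and −0.67 to 0.35 for Insig1. Acly was at −0.011 with the block. Without activated cells holding a proliferation UMI Acly was at −0.064, Tm7sf2 at −0.39 and Fasn at −0.19. Srebf1 was at 0.36 after thinning and 0.0055 without cells holding a marker UMI of other cell types.

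The alternatives without activated cells holding a proliferation UMI, without dividing cells and with no floor were chosen after seeing the data, as was the minimum of 50 UMIs in the counts of direction. Only 2 libraries a group enter the test, and CD4, CD8 and TCRab allow none. Members' UMIs per cell are few, so shares after thinning are low and their order between genes was not read.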

Other observations

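Npc2, which hands cholesterol out of the lysosome, passed the 2-fold rule with 20 CPM between naive DNT and the other uncultured cells, against all 3 groups. It was 1 of 66 genes in the related lists, and no other passed. Of 17378 genes detected, 1.59%, 1.23% and 1.25% passed that rule against CD4, CD8 and TCRab, so the count is near the share over all genes. Npc2 is described for its values only. It had 247 and 204 CPM in naive DNT, against 669 CPM in CD4, 577 CPM in CD8 and 704 CPM in TCRab. Its ratios were 0.37 and 0.30 to CD4, 0.43 and 0.35 to CD8 and 0.35 and 0.29 to TCRab, below 0.5 with both kits. It was named after its values were seen. Activated against naive DNT, it did not pass the test (log2 fold change −0.64 ± 0.49, adjusted p = 0.448).

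Apoe, the apolipoprotein that carries cholesterol, had 1.34 and 2.30 CPM in activated DNT and 63.7 and 11.4 CPM in naive DNT. After cells with a UMI of a B cell, myeloid or red cell marker were left out, it had 5.94 and 2.45 CPM in naive DNT.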
